A study of Mus musculus with 18 samples.

Results

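Gene expression was compared between mouse bone marrow-derived macrophages kept for 48 hours in plasma of mice without apolipoprotein E and stabilin-2 (AS2, 6 arrays) and the same kind of cells kept in plasma of mice without apolipoprotein E alone (ApoE, 5 arrays). These 11 arrays were chosen by their titles out of the 18 arrays of the series, and the comparison covered all 24705 rows with a gene symbol. The other 7 arrays, with plasma of wild-type mice (WT, 4 arrays) or of mice without apolipoprotein E and stabilin-1 (AS1, 3 arrays), are used here as reference levels. All plasma donors were C57BL/6J mice after 8 weeks of Western diet, and the ApoE, AS1 and AS2 donors share the loss of apolipoprotein E, labelled ApoE-KO, ApoE-Stab1-KO and ApoE-Stab2-KO. Cells were flushed from femurs, grown in medium with 10% fetal calf serum and M-CSF (the macrophage growth factor) at 30 ng/ml, moved on day 4 to medium with 10% plasma in place of serum, and lysed for RNA on day 6. The treatment protocol names M-CSF for the first medium and does not say whether it was in the plasma medium. The labels do not give the age or sex of the donors, the genotype of the marrow, whether plasma was pooled, or whether replicates were separate cultures, so the spread that p-values rest on is the one among arrays and may be of technical origin only.

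Apolipoprotein E is a ligand by which the liver takes remnant lipoproteins out of blood, and mice without it build up cholesterol-rich particles in plasma, most of all on a Western diet. Stabilin-2 is a scavenger receptor of sinusoidal endothelium in liver, spleen and lymph node that removes hyaluronan and other ligands from the circulation. The labels give the knockout for the plasma donor and do not state the genotype of the macrophages, so the comparison is of macrophages kept in 2 kinds of plasma. Macrophages sense plasma through growth factor, lipid and pattern receptors, and lipid load is known to act on them through sterol sensors, the unfolded protein response and the integrated stress response.

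The macrophage identity given by the labels was checked on 9 markers. Csf1r, the M-CSF receptor, was 12.22 ± 0.09 with ApoE plasma and 12.40 ± 0.057 with AS2 plasma, and the adhesion receptor gene Adgre1 (F4/80) was 12.08 ± 0.057 and 12.23 ± 0.073. All levels are log2 values from RMA (robust multi-array average), given as mean ± SD over 5 ApoE or 6 AS2 arrays, on a scale whose median over all rows and arrays was 4.37. The mean over the 9 markers ran from 10.00 to 10.20 in the ApoE arrays and from 10.21 to 10.27 in the AS2 arrays, so the markers were high in all 11. Between the plasmas 4 of the 9 were called higher and 2 lower, the latter Cd68 (-0.17 ± 0.048), whose call was lost without ApoE 3 or ApoE 4, and Mertk (-0.70 ± 0.045). Array ApoE 2 correlated least with its own group (mean r across rows 0.991), and array ApoE 5 was closest, of the arrays in other groups, to an AS1 array (r = 0.994). Rows are not independent replicates in these correlations. Without these 2 arrays 1708 rows were higher and 1805 lower with AS2 plasma, against 1876 and 1981 with them.

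A row was called where the adjusted p of limma's moderated test (Benjamini-Hochberg over 24705 rows) was under 0.05, and only called rows are said to have risen or fallen. With AS2 plasma 7.59% of all rows were higher and 8.02% lower, and these shares are the background for every list below. They include many rows of low level. Of 19683 protein-coding rows 8.94% were higher. Of the 5571 among them with a mean of at least 7 in ApoE or AS2, 1121 were higher, and lower calls at that level were not counted. A list of well-expressed genes can therefore exceed the shares over all rows without differing from other well-expressed genes. The median difference over all rows was -0.0024. The median size of a called difference was 0.41 log2 units upward and 0.37 downward. Calls with at least a 2-fold difference made up 0.672% of rows upward (166 rows) and 0.542% downward (134 rows), and 10 and 8 rows passed 4-fold. All AS2 arrays lay above all ApoE arrays in 5.44% of rows and below all of them in 5.48%. Differences are given below in log2 units, AS2 minus ApoE, with the standard error (SE) of the fit.

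**Figure D1:**
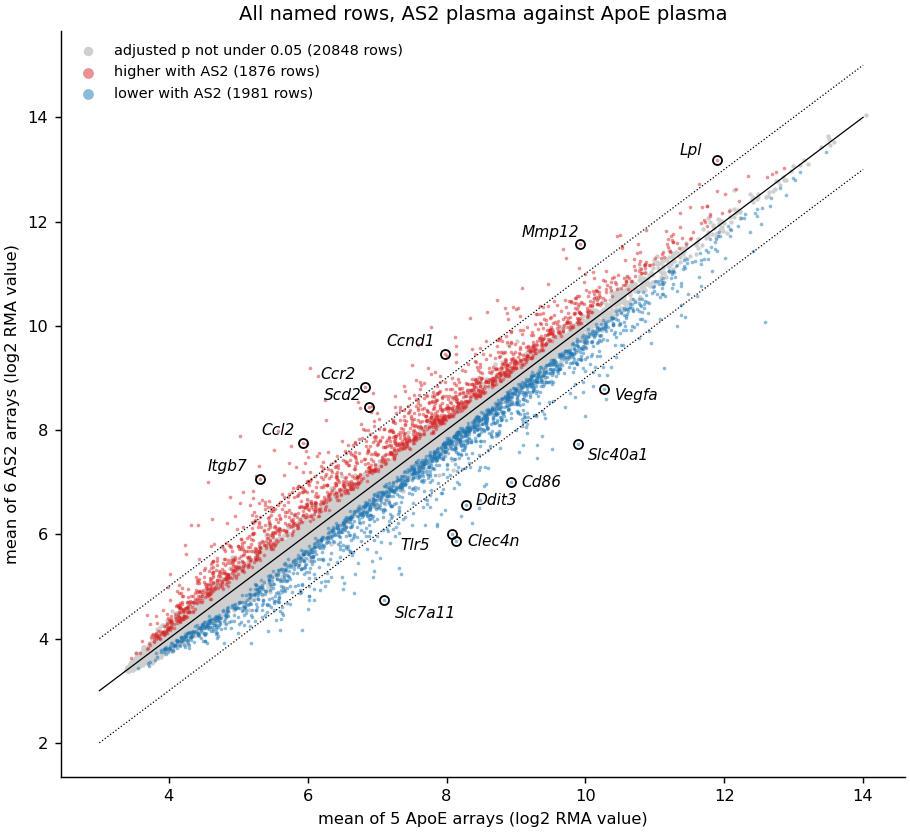
Mean log2 RMA value of the 6 AS2 arrays (vertical) against the mean of the 5 ApoE arrays (horizontal) for 24705 rows, with red and blue points for the 1876 rows called higher and the 1981 called lower. The solid line marks equal levels and the dotted lines a 2-fold difference; 166 higher and 134 lower calls lie beyond them, among them the 14 circled genes.

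Slc7a11, the cystine importer, had the largest fall of the genes eligible for naming after F5 and Thbs1. Its levels in the ApoE arrays were 7.14, 6.98, 7.12, 7.65 and 6.62, and the AS2 arrays lay between 4.56 and 4.94 with a median of 4.75. The groups did not overlap, and the difference of -2.35 ± 0.13 was a 5.11-fold fall (adjusted p = 9.17e-10). With WT plasma Slc7a11 was 7.33 ± 0.051 (SD, n = 4), so the AS2 level was also below that of cells in wild-type plasma (-2.59 ± 0.14, adjusted p = 2.75e-10).

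**Figure D2:**
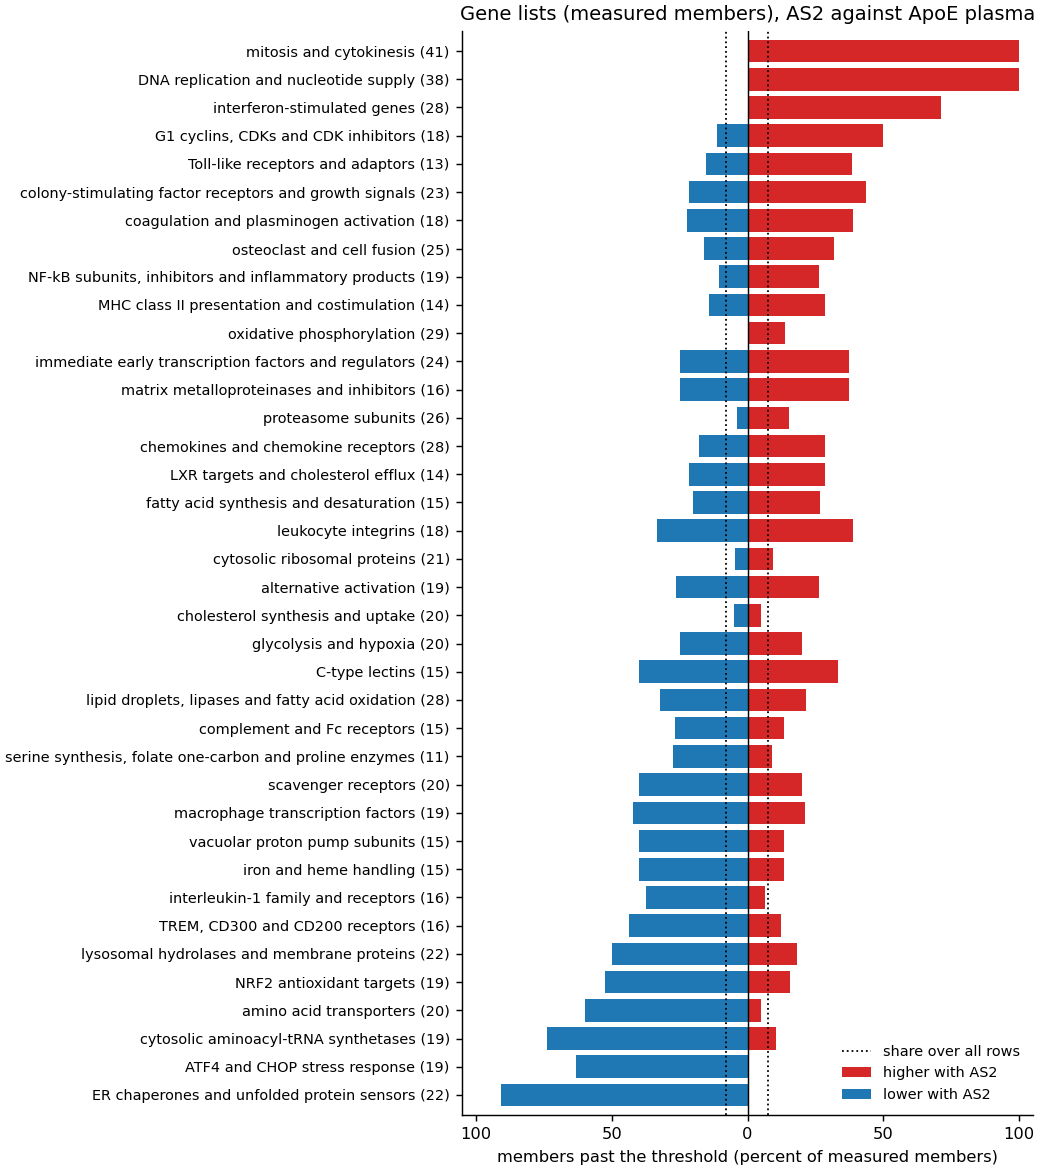
Share of measured members of each of 38 gene lists called higher (red, to the right) or lower (blue, to the left) with AS2 plasma, with the number of measured members in brackets. Dotted lines mark the shares over all rows, 7.59% and 8.02%; the mitosis and replication lists reach 100% higher and the ER chaperone list 90.9% lower.

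Genes of DNA replication and mitosis rose together. All 41 measured genes of mitosis and cytokinesis were called higher, with a median difference of 0.88, and so were all 38 genes of DNA replication and nucleotide supply, with a median of 0.77. All AS2 arrays lay above all ApoE arrays in 38 and 36 of these genes. Cdk1, the mitotic kinase, stood at 7.21, 7.43, 7.46, 6.90 and 7.26 in the ApoE arrays and between 8.31 and 8.69 (median 8.41) in the AS2 arrays. No AS2 array fell within the ApoE range, and Cdk1 rose by 1.20 ± 0.12 (adjusted p = 1.01e-06). The mitotic checkpoint kinase gene Bub1 rose by 1.35 ± 0.13, the kinetochore gene Ndc80 by 1.30 ± 0.16, the anaphase ubiquitin-conjugating enzyme gene Ube2c by 1.14 ± 0.16 and the cytokinesis kinesin gene Kif20a by 1.12 ± 0.074. The smallest changes of the list were in Cenpa, the histone of centromeres (0.33 ± 0.068), Mybl2 (0.49 ± 0.13) and the proliferation marker Mki67 (0.50 ± 0.063). Mki67 was already 10.16 ± 0.17 with ApoE plasma, against 8.03 ± 0.10 with WT plasma (SD, n = 4).

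In the replication list the largest rises were in Uhrf1, which carries DNA methylation through replication (1.30 ± 0.10), Pole, the leading-strand polymerase (1.27 ± 0.077), and Mcm7 of the replicative helicase (1.15 ± 0.073). The helicase genes moved together: Mcm2, Mcm3, Mcm4, Mcm5 and Mcm6 rose by 0.53, 0.93, 0.84, 1.03 and 0.89. Genes of nucleotide supply rose too, with Rrm1 and Rrm2 of ribonucleotide reductase at 0.95 and 1.07, Tyms (thymidylate synthase) at 0.69 and Tk1 (thymidine kinase) at 0.73. Pcna, the polymerase clamp, was among the most abundant members and rose by 0.52 ± 0.075 from 12.01 ± 0.06.

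The cyclins that open the cycle did not move as one. Ccnd1, cyclin D1, was 8.06, 7.90, 8.08, 8.18 and 7.71 in the ApoE arrays and 9.30 to 9.63 (median 9.50) in the AS2 arrays, a rise of 1.48 ± 0.079 (adjusted p = 7.04e-10). Every AS2 array was above every array of the other groups, and Ccnd1 was also higher than with AS1 (1.66 ± 0.092) and WT plasma (1.54 ± 0.084). In contrast Ccnd2, cyclin D2, fell by 0.53 ± 0.11. Of the kinases that partner D cyclins, Cdk6 rose by 0.65 ± 0.081 and Cdk4 fell by 0.43 ± 0.063. The cyclin E genes Ccne1 and Ccne2 rose by 0.46 ± 0.12 and 1.04 ± 0.12. In the whole list of 18 cyclins, kinases and inhibitors of the first gap phase, 9 rose and 2 fell.

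Many mitotic genes are known to be repressed in resting cells through a CCAAT box next to a cell cycle homology region, TTTGAA, in their promoters. RefSeq windows of the GRCm38.p6 build, from 250 bases before to 50 after each gene's start, were searched on both strands for CCAAT and for TTTGAA. No distance or order between the motifs was required. In Ccnb2 below, TTTGAA begins 167 and the nearest CCAAT 87 bases before the gene's start. The mitosis list had 36 windows for 34 of its genes. CCAAT was in 72.2% of them against 37.8% of all 22378 windows, TTTGAA in 77.8% against 15.7%, and both in 63.9% against 6.31%. Of the 38 windows of the replication list, 26.3% held TTTGGCGC or TTTCCCGC, letters of E2F sites, against 2.04% of all windows. Such a match is a description of the letters and not evidence of binding. The stretches below, upstream of Ect2 (chr3:27153909-27154012, minus strand), Ccnb2 (chr9:70421555-70421741, minus strand) and Cdk1 (chr10:69352913-69353140, minus strand), are shown because they hold both motifs in genes that rose by 0.86, 0.88 and 1.20. They were picked among the members of the mitosis list with the smallest p that held both motifs before the start. The same rule gave Top2a, not printed here. The stretches run 5′ to 3′ in the direction of transcription, and capitals mark either motif on either strand.
Ect2: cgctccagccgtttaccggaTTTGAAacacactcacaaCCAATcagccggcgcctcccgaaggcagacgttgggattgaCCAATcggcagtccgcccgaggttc
Ccnb2: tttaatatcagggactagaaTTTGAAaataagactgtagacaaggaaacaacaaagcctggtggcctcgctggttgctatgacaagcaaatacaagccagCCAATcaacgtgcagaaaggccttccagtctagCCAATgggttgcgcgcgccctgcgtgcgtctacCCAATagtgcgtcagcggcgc
Cdk1: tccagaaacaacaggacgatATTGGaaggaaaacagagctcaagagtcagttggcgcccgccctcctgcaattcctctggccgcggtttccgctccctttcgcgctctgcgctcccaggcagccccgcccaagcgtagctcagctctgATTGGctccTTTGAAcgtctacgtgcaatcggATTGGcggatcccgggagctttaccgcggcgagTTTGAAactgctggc

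Opposite to the division genes, RNA of most measured genes of the integrated stress response fell. This pathway, in which the transcription factor ATF4 switches on amino acid supply genes and CHOP (Ddit3) when translation initiation is curbed, had 12 of 19 measured members lower (median -0.73). Ddit3 was 8.20, 8.09, 8.73, 8.38 and 7.97 in the ApoE arrays and 6.41 to 6.85 (median 6.50) in the AS2 arrays. The ranges were more than 1 log2 unit apart, and Ddit3 fell by 1.71 ± 0.11 (adjusted p = 6.74e-09). Atf4 itself fell by 0.89 ± 0.086 and Atf5, of the same list, by 1.09 ± 0.19. Among the targets, the asparagine synthetase gene Asns fell by 1.25 ± 0.17, the stress regulators Trib3 and Sesn2 by 1.16 ± 0.15 and 1.20 ± 0.091, the glutathione-degrading enzyme gene Chac1 by 1.15 ± 0.16 and the phosphatase subunit gene Ppp1r15a, which ends the response, by 0.73 ± 0.11. Atf3, another factor of this response, was 9.81 ± 0.13 against 9.86 ± 0.076 (adjusted p = 0.7). Of the other 6 members not past the threshold, Stc2, Cth, Fgf21, Vldlr and Bbc3 lay near the median of the scale in both groups.

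Many genes of amino acid import, loading and chaperoned folding fell as well. The serine, folate and proline enzymes did so less: of 11 measured genes 3 fell, 1 rose and 7 did not pass. Of 20 amino acid transporter genes 12 fell, and Slc1a5, a glutamine transporter, was the one that rose, by 0.65 ± 0.13. In this list 2 rose without ApoE 4, after cyclic loess normalization, or where rows of low mean level were left out. Slc7a5 and Slc3a2, the light and heavy chain of the large neutral amino acid exchanger, fell by 1.83 ± 0.17 and 1.17 ± 0.055, and the arginine and lysine transporter gene Slc7a1 by 0.90 ± 0.19. Of 19 cytosolic aminoacyl-tRNA synthetases 14 fell, led by Aars (alanine, -0.95 ± 0.082) and Sars (serine, -0.77 ± 0.088). Qars, for glutamine, rose by 0.26 ± 0.07. Kars, for lysine, was the only other one called higher (0.17 ± 0.053), and its call was lost without any one of the 5 ApoE arrays and without array AS2 1, 3, 4 or 6 (limma adjusted p 0.0553 to 0.0916). Of 22 ER chaperone and sensor genes 20 fell: the chaperone genes Hspa5 and Hyou1 by 0.72 ± 0.064 and 1.05 ± 0.09, the co-chaperone gene Dnajb9 by 1.07 ± 0.082 and Herpud1, of ER-associated degradation, by 0.96 ± 0.082. The remaining pair, the sensor gene Atf6 and Edem1, was 10.16 ± 0.088 against 10.15 ± 0.012 and 10.47 ± 0.084 against 10.48 ± 0.056.

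**Figure D3:**
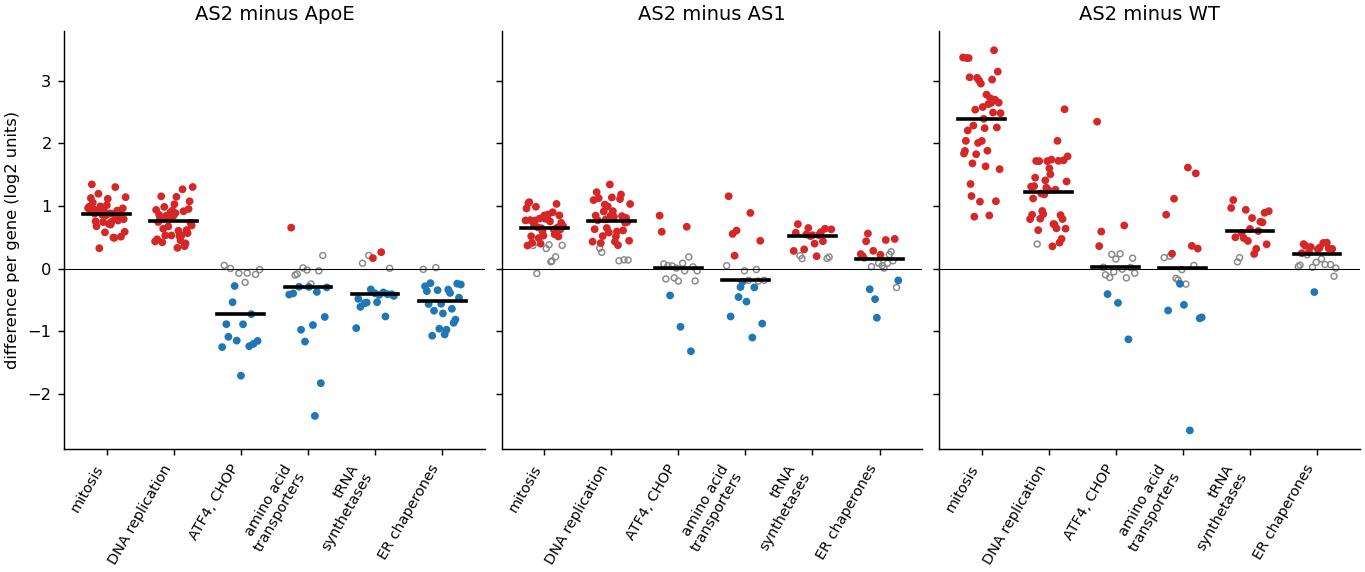
Difference of each member (points, log2 units) in 6 gene lists for AS2 minus ApoE, AS2 minus AS1 and AS2 minus WT; filled points passed the threshold, open points did not, and bars are list medians. The mitosis medians are 0.88, 0.66 and 2.39, while those of the tRNA synthetases are -0.41, 0.52 and 0.60.

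The same AS2 arrays were set against the AS1 and WT arrays in the same model, where 11.5% of rows were higher and 10.6% lower than with AS1 plasma, and 8.65% were higher and 9.2% lower than with WT plasma. These comparisons share the AS2 arrays with the main one, so their values are given side by side and are not separate evidence. Mitosis genes were higher in AS2 than in AS1 in 33 of 41 cases and higher than in WT in 41, and replication genes in 33 and 37 of 38. ATF4 and CHOP genes were called in both directions. Of 19 measured members 3 were higher and 3 lower than with AS1, and 4 were higher and 3 lower than with WT plasma. Ddit3 was -0.20 from its AS1 level (adjusted p = 0.344) and 0.15 from its WT level (adjusted p = 0.496). Some supply genes below ATF4 lay higher, and Asns was 2.35 ± 0.18 above the WT level and 0.85 ± 0.20 above AS1. The same held for Slc7a1 (1.61 over WT, 0.89 over AS1), and 17 of 19 tRNA synthetases were higher than with WT plasma. Sesn2, Ddit4, Slc7a11 and Herpud1 were among the genes called lower than in both references, with Sesn2 at -1.13 from WT and -1.32 from AS1.

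ATF4 is known to bind composite C/EBP-ATF sites, here searched as TGATGNAAN on both strands in the same RefSeq windows. It was in 33.3% of the 21 windows of the ATF4 and CHOP list, in 16.7% of the 24 windows of the transporter list and in 0 of the 11 windows of the serine, folate and proline list, against 3.35% of all windows. Slc7a11 held it on both strands, 66 and 48 bases before the start. Stretches are shown for Asns (chr6:7693210-7693252, minus strand), Chac1 (chr2:119351028-119351076, plus strand), Nupr1 (chr7:126625553-126625601, minus strand) and Slc7a11 (chr3:50443633-50443699, minus strand). They were picked among the members with the smallest p in their lists that held a match before the start. The same rule gave Slc7a7 and Fgf21, not printed here, and Fgf21 did not pass the threshold. Capitals mark the match on either strand.
Asns: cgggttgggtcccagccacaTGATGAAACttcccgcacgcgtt
Chac1: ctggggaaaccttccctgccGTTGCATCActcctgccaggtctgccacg
Nupr1: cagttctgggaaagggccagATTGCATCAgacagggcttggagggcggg
Slc7a11: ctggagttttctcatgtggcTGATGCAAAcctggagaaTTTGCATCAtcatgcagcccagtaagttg

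Several genes of matrix breakdown and of bone-resorbing cells rose beside Acp5 and Dcstamp. The elastase gene Mmp12 was 9.87, 10.08, 9.88, 9.96 and 9.86 in the ApoE arrays and 11.47 to 11.63 (median 11.59) in the AS2 arrays, a 3.1-fold rise with no overlap (adjusted p = 2.91e-11). The collagenase gene Mmp13 rose by 1.55 ± 0.14, the cathepsin K gene Ctsk by 1.18 ± 0.12 and Mmp19 by 0.72 ± 0.078. Receptor and regulator genes of osteoclast formation moved with them, with Tnfrsf11a (RANK) at 1.19 ± 0.061, the transcription factor gene Mitf at 1.002 ± 0.068 and the fusion-related tetraspanin gene Cd9 at 0.92 ± 0.065. Atp6v0d2, a proton pump subunit of osteoclasts and macrophages, rose by 1.28 ± 0.057. Of the 25 genes of the osteoclast and fusion list 8 rose and 4 fell, with the largest fall in Itgb3 (-1.71). Nfatc1, the master regulator of osteoclast fate, was 8.80 ± 0.12 against 8.86 ± 0.073 (adjusted p = 0.703). The osteoclast-defining genes Calcr and Oscar sat at 3.86 ± 0.054 and 3.88 ± 0.11 with AS2 plasma, below the median of the scale. A value below that median is not by itself low RNA, as given below for Gapdh. The summed level of the 8 osteoclast markers, as their mean, was 5.71 to 6.00 in the ApoE arrays and 6.41 to 6.81 in the AS2 arrays. Of these 8 markers 4 were called higher and 0 lower, with differences from -0.76 to 2.43. In bulk RNA, more cells of a type and more RNA per cell cannot be told apart. Mmp14, the membrane-bound collagenase, fell by 0.80 ± 0.10 and Mmp27 by 1.18 ± 0.17, so the 16 metalloproteinase and inhibitor genes divided into 6 higher and 4 lower.

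Adhesion receptors changed in both directions. Of 18 integrin genes 7 rose and 6 fell. Next to Itgax, Itgb7 rose from 5.31 ± 0.23 to 7.06 ± 0.25 and had no ApoE array in its range. Itgam and Itgb2, the chains of complement receptor 3, rose by 0.96 ± 0.084 and 0.55 ± 0.05, and the fibronectin receptor chain Itga5 by 0.62 ± 0.064. Itgb3, the beta-3 chain of platelets and osteoclasts, fell by 1.71 ± 0.16, and Itgad and Itga9 fell by 1.45 ± 0.15 and 1.33 ± 0.12. The adhesion genes Vcam1 and Pecam1 fell by 1.94 ± 0.079 and 1.85 ± 0.11. Of 18 coagulation and plasminogen genes 7 rose and 4 fell. Besides F5 and Thbs1, the protein S homologue gene Gas6, a bridging ligand for apoptotic cells, fell by 1.002 ± 0.044 and the clot cross-linking enzyme gene F13a1 by 0.99 ± 0.082. Axl and Mertk, which encode receptors of Gas6, fell by 0.44 ± 0.086 and 0.70 ± 0.045. In the opposite direction the clotting factor gene F7 rose by 0.69 ± 0.16 and the plasmin co-receptor gene Anxa2 by 0.76 ± 0.049.

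Markers of megakaryocytes and platelets moved with Itgb3, F5, Thbs1 and Pecam1, which that lineage also expresses. All 5 such markers fell: Itga2b by 1.65 ± 0.14, Ppbp by 1.59 ± 0.25, Pf4 by 1.49 ± 0.14, Gp9 by 1.36 ± 0.19 and Gp6 by 0.53 ± 0.095. The mean over them was 7.02 to 7.89 in the ApoE arrays and 5.98 to 6.37 in the AS2 arrays, and with WT plasma it was 6.67 to 6.82. Gp6, the platelet collagen receptor gene, was 4.82 ± 0.23 with ApoE and 4.29 ± 0.071 with AS2 plasma, near the median of the scale in the latter. The part of these cells in the falls of Itgb3, F5, Thbs1 and Pecam1 was not tested. Neutrophil markers fell in 7 of 14 cases, with a mean over the list of 7.58 to 8.75 in the ApoE arrays and 6.998 to 7.75 in the AS2 arrays. The late granule genes Ltf and Lcn2 fell by 1.27 ± 0.18 and 1.03 ± 0.19, and S100a8 and S100a9 by 1.24 ± 0.18 and 1.18 ± 0.17, whereas the early granule genes Mpo and Elane were 8.47 ± 0.50 against 8.41 ± 0.11 and 7.57 ± 0.48 against 7.50 ± 0.20 (adjusted p = 0.912 and 0.901). The part of neutrophil RNA in other falls was not tested. Of 8 endothelial markers 3 fell (Pecam1, Vwf and Kdr), while Cdh5, Tek, Emcn and Robo4, which define endothelium, lay near or below the median of the scale in both groups. Such low values do not by themselves show that the RNA was absent.

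**Figure D4:**
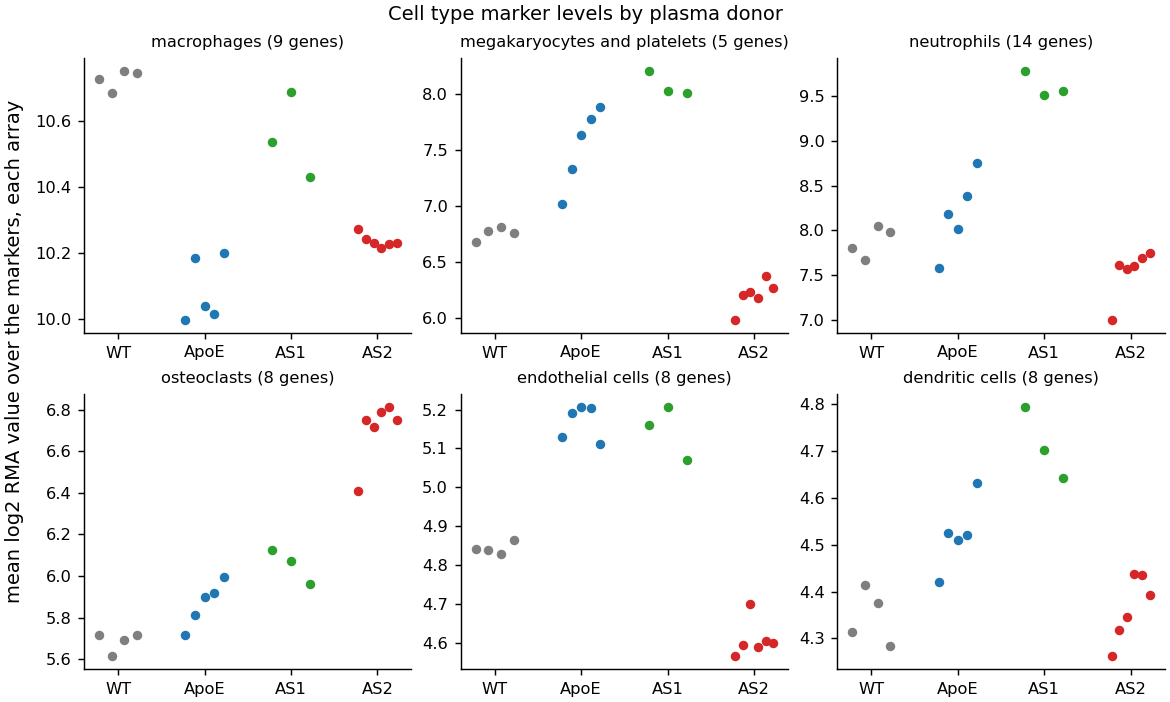
Mean log2 RMA value over a marker list (vertical) in every array of the 4 plasma groups, one panel per cell type. The panels show macrophages, megakaryocytes and platelets, neutrophils, osteoclasts, endothelial cells and dendritic cells. The megakaryocyte and platelet mean is 7.02 to 7.89 with ApoE and 5.98 to 6.37 with AS2 plasma, and the macrophage mean stays between 10.00 and 10.75 in all 18 arrays.

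Iron export and uptake genes were both lower. Slc40a1, ferroportin, the only known cellular iron exporter, was 9.66, 10.03, 9.88, 9.94 and 9.95 in the ApoE arrays and 7.47 to 8.04 (median 7.77) in the AS2 arrays, a 4.48-fold fall without overlap (adjusted p = 4.28e-11). The transferrin receptor gene Tfrc fell by 1.22 ± 0.068, and the haemoglobin scavenger gene Cd163 by 1.29 ± 0.10. The heme oxygenase gene Hmox1 fell by 0.38 ± 0.061 and Spic, the factor of iron-recycling macrophages, by 1.33 ± 0.18. Of 15 iron and heme genes 6 fell and 2 rose, or 1 without any of ApoE 1 to 4 or AS2 1, 2, 3 or 6; the reductase gene Steap3 rose by 0.50 ± 0.11. Ferritin heavy chain, Fth1, was 13.58 ± 0.064 against 13.52 ± 0.035 (adjusted p = 0.348).

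Of 19 targets of NRF2, the regulator of antioxidant defence, 10 fell and 3 rose. Beside Slc7a11, the glutathione synthesis genes Gclm and Gclc fell by 0.59 ± 0.051 and 0.47 ± 0.062, the catalase gene Cat by 0.37 ± 0.035 and the glutathione reductase gene Gsr by 0.37 ± 0.041. Nfe2l2, which encodes NRF2, fell by 0.26 ± 0.053. Nqo1, a classical target, and the pentose phosphate genes Tkt and Pgd rose by 0.59 ± 0.12, 0.33 ± 0.048 and 0.27 ± 0.053. In the list of glycolysis and hypoxia the growth factor gene Vegfa fell by 1.48 ± 0.088, the ER oxidase gene Ero1a by 1.26 ± 0.12 and the hexokinase gene Hk2 by 0.84 ± 0.057, while Ldha and Pkm of the last steps of glycolysis rose by 0.31 ± 0.063 and 0.41 ± 0.057. This list had 4 higher and 5 lower of 20. Gapdh and 7 of 21 ribosomal protein genes, which all cells use, sat below the median of the scale (Gapdh 3.77 ± 0.055 and 3.81 ± 0.11), so a low value of a row is not by itself low RNA. Of 29 genes of oxidative phosphorylation 4 rose, with a median of 0.12 over the list, and 7 rose where rows of low mean level were left out. Of 21 ribosomal protein genes 2 rose and 1 fell (0 without ApoE 1 or ApoE 2), shares near the background.

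Lipid genes moved in both directions within each pathway. Lpl, lipoprotein lipase, was 11.83, 11.87, 11.95, 11.87 and 11.98 in the ApoE arrays and 13.11 to 13.21 (median 13.19) in the AS2 arrays. These levels are high on the scale and did not overlap, and Lpl rose by 1.28 ± 0.035 (adjusted p = 2.76e-13). The desaturase genes Scd1 and Scd2 rose by 1.01 ± 0.12 and 1.55 ± 0.15, Fads2 by 0.82 ± 0.12 and Fads1 by 0.39 ± 0.067. Of 15 genes of fatty acid synthesis and desaturation 4 rose and 3 fell, or 1 fell without ApoE 1. The fatty acid-binding protein genes Fabp4 and Fabp5 fell by 0.98 ± 0.093 and 1.60 ± 0.12, and Dgat1, which makes triglyceride, by 0.89 ± 0.10. Of the cholesterol exporters, targets of the sterol sensor LXR, Abcg1 rose by 0.62 ± 0.044 and Abca1 fell by 0.29 ± 0.054. Mylip, an LXR target that degrades lipoprotein receptors, fell by 0.80 ± 0.061. Of 14 LXR targets 4 rose and 3 fell, and the sensor gene Nr1h3 was 8.11 ± 0.12 against 7.98 ± 0.11 (adjusted p = 0.473). Apoe of the macrophages fell by 0.36 ± 0.07 from 11.77 ± 0.19. Cholesterol synthesis stayed near the background: of 20 genes Msmo1 rose by 0.51 ± 0.09, Insig1 fell by 0.42 ± 0.085, and the other 18 did not pass. The one rise became 3 without array AS2 5 or where rows of low mean level were left out. It became 2 without ApoE 3 or ApoE 4 or after cyclic loess normalization. The one fall became 2 without ApoE 2 or ApoE 5, and 3 without ApoE 2 and 5 together. Of 28 genes of lipid droplets, lipases and oxidation 6 rose and 9 fell; the droplet coat gene Plin2 fell by 0.21 ± 0.043 from 13.01 ± 0.089.

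Lysosomal genes fell more often than they rose, 11 against 4 of 22, by small amounts. The cholesterol transporter gene Npc1 fell by 0.56 ± 0.047, the calcium channel gene Mcoln1 by 0.51 ± 0.092 and the sialidase gene Neu1 by 0.47 ± 0.075. Ctsl, cathepsin L, rose by 0.69 ± 0.067. Of 15 proton pump subunits 6 fell, and Atp6v0d1 fell by 0.49 ± 0.047 where its osteoclast counterpart Atp6v0d2 rose. Against WT plasma the picture differed, since Atp6v1c1, which fell by 0.48 ± 0.077 against ApoE, was 0.60 ± 0.082 above the WT level.

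Several receptors for microbial products were lower and others higher: of 15 C-type lectin genes 5 rose and 6 fell, and of 13 Toll-like receptor and adaptor genes 5 rose and 2 fell. The C-type lectin genes Clec4n (dectin-2) and Clec4e (mincle) were 8.14 ± 0.14 and 8.37 ± 0.34 with ApoE plasma and 5.88 ± 0.083 and 6.22 ± 0.16 with AS2 plasma. For Clec4n the ApoE arrays gave 7.97, 8.05, 8.16, 8.34 and 8.20 and the AS2 arrays 5.79 to 6.02 (median 5.86), far apart (adjusted p = 2.76e-13). Clec7a (dectin-1), the receptor for beta-glucan, went the other way and rose by 1.39 ± 0.082, as did the inhibitory lectin gene Clec12a (0.9999 ± 0.072). Tlr5, the flagellin receptor, was 7.71, 7.67, 8.17, 8.22 and 8.64 in the ApoE arrays and 5.80 to 6.31 (median 5.96) in the AS2 arrays. No arrays overlapped, and Tlr5 fell by 2.08 ± 0.15 (adjusted p = 2.28e-08). Among the other Toll-like receptors Tlr2 fell by 0.42 ± 0.10, Tlr1 and Tlr13 rose by 0.58 ± 0.06 and 0.52 ± 0.10, and Tlr4, the endotoxin receptor, was 9.77 ± 0.088 against 9.76 ± 0.065 (adjusted p = 0.929). Of 16 genes of the TREM, CD300 and CD200 receptor families 7 fell and 2 rose, with Cd200r4 at -1.30 ± 0.19 and Trem2 at 11.04 ± 0.15 against 11.11 ± 0.048 (adjusted p = 0.567).

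Of 20 scavenger receptor genes 8 fell and 4 rose. Stab1, stabilin-1 of the macrophages themselves, fell by 0.79 ± 0.048 from 11.83 ± 0.078, and the mannose receptor gene Mrc1 by 0.49 ± 0.06. Stab2 was low in these cells (5.48 ± 0.13 and 5.01 ± 0.23); its fall of 0.46 ± 0.14 passed (adjusted p = 0.0268) and was lost without ApoE 1, ApoE 5, AS2 3, AS2 4 or AS2 5 (adjusted p 0.0508 to 0.0696). Scarb1 and Cd36, receptors for lipoproteins, rose by 0.60 ± 0.10 and 0.25 ± 0.06, and Lrp1, the remnant receptor, by 0.27 ± 0.05. The LDL receptor gene was not analysed here.

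Genes by which macrophages present antigen to T cells changed in opposite ways. Cd86, the costimulatory ligand, was 8.94, 8.66, 8.98, 9.14 and 8.91 in the ApoE arrays and 6.83 to 7.33 (median 6.98) in the AS2 arrays. The groups were apart by over 1 log2 unit, Cd86 fell by 1.92 ± 0.082 (adjusted p = 4.44e-11), and it was also lower than with WT plasma (-1.66 ± 0.087), and Cd80 fell by 0.70 ± 0.083. The class II transactivator gene Ciita rose by 1.12 ± 0.18 and the peptide loading genes H2-DMa and H2-DMb1 by 0.63 ± 0.16 and 0.75 ± 0.18, while H2-Aa and H2-Ab1 were 11.04 ± 0.50 against 11.34 ± 0.067 and 11.79 ± 0.29 against 11.99 ± 0.05 (adjusted p = 0.266 and 0.216). Of these 14 genes 4 rose and 2 fell, and 8 rose without array ApoE 5. Of 15 complement and Fc receptor genes 2 rose and 4 fell, and C1qb and C1qc fell by 0.36 ± 0.063 and 0.44 ± 0.084. Interferon-stimulated genes rose in 20 of 28 cases, with a median of 0.31. Over the settings named in the closing section 15 to 20 of them rose, and 16 rose without ApoE 2 and 5 together. The guanylate-binding protein gene Gbp2 rose by 1.17 ± 0.16, the antiviral genes Oasl2 and Oas3 by 0.91 ± 0.067 and 0.89 ± 0.14, Ifit1 by 0.78 ± 0.13 and the master factor Irf7 by 0.70 ± 0.12. Against WT plasma the same list had 4 higher and 2 lower, and Irf7 was -0.89 ± 0.13 from WT. The chemokine gene Cxcl10, also of this list, was 4.30 ± 0.10 against 4.51 ± 0.087 (adjusted p = 0.12).

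Cytokine genes changed in both directions. In the interleukin-1 family the agonist genes Il1a and Il18 fell by 1.76 ± 0.11 and 0.51 ± 0.08, and the decoy gene Il18bp, which binds interleukin-18, fell by 1.51 ± 0.11; Il1rn, the receptor antagonist, was the one rise. Of 16 members 6 fell, or 3 without ApoE 2 and 5 together, and a second member was called higher without ApoE 1 or ApoE 2. Il1a reached 4.16 ± 0.025 with AS2 plasma, near the low end of the scale. Of 28 chemokine and receptor genes 8 rose and 5 fell. Ccl2, the monocyte attractant, was 5.78, 5.61, 6.30, 6.11 and 5.87 in the ApoE arrays and 7.32 to 8.20 (median 7.76) in the AS2 arrays, a 3.52-fold rise without overlap (adjusted p = 2.40e-07). Its receptor gene Ccr2 rose by 1.99 ± 0.11 to 8.83 ± 0.10, a level 0.15 from that with WT plasma (adjusted p = 0.513), whereas Ccl2 was 2.66 ± 0.17 above WT. Ccr1 rose by 1.03 ± 0.19 and Ccl22 by 0.79 ± 0.11. Ccrl2, a chemokine-presenting receptor, and the neutrophil attractant gene Cxcl2 fell by 2.10 ± 0.14 and 1.45 ± 0.21. Of 19 genes of NF-kB and its products 5 rose and 2 fell, or 4 fell without ApoE 2 or ApoE 5. The falls were in the inhibitor-like Nfkbiz (-0.30 ± 0.06) and in Ptgs2, which encodes cyclooxygenase-2 (-0.48 ± 0.071). Nfkbia, Nfkb2 and Icam1 rose by 0.51 ± 0.045, 0.57 ± 0.093 and 0.75 ± 0.074, and Il10 by 0.68 ± 0.085; Tnf was 6.68 ± 0.25 against 6.82 ± 0.17 and Tnfaip3 6.82 ± 0.20 against 6.81 ± 0.073 (adjusted p = 0.529 and 0.971).

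**Figure D5:**
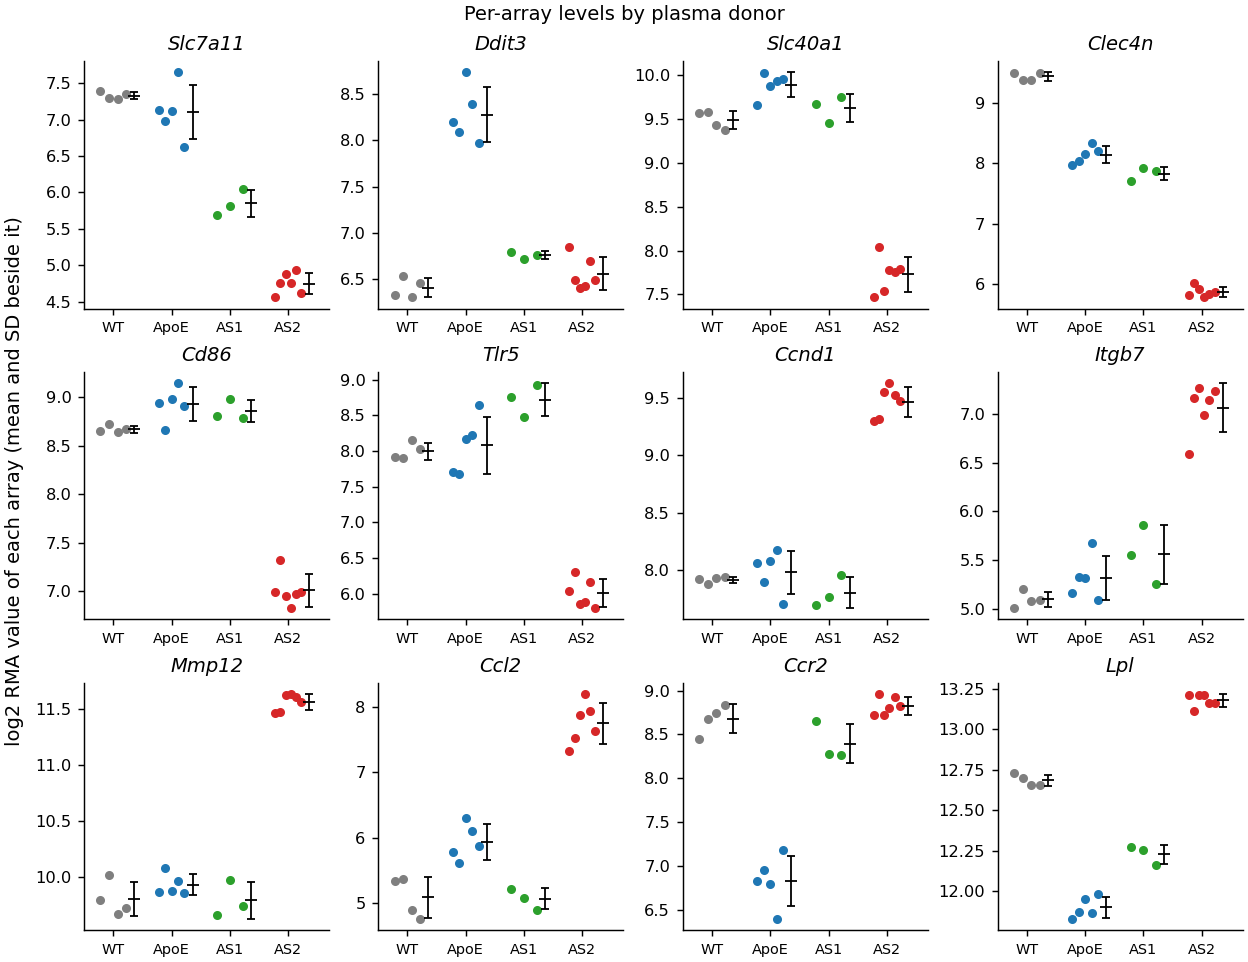
Log2 RMA value of every array (points) for 12 genes in the 4 plasma groups, with mean and SD as a bar beside each group. The 6 AS2 points do not overlap the 5 ApoE points in any panel; Ccr2 with AS2 plasma lies between 8.72 and 8.96, next to its WT values, whereas Ccnd1, Mmp12 and Ccl2 lie above all 3 other groups.

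Of 23 genes of colony-stimulating factor receptors and growth signals 10 rose and 5 fell, or 3 fell without ApoE 3, AS2 1 or AS2 6. The GM-CSF receptor chains Csf2ra, Csf2rb and Csf2rb2 rose by 0.67 ± 0.13, 0.47 ± 0.067 and 0.66 ± 0.071, and Csf1r by 0.18 ± 0.046. In the same list Spred1, Dusp5 and Spry2, which encode inhibitors of MAP kinase signalling, rose by 0.87 ± 0.072, 0.79 ± 0.14 and 0.45 ± 0.10, and the transcription factor gene Etv5 by 0.81 ± 0.14. Csf3r, the G-CSF receptor of granulocytes, fell by 1.08 ± 0.095, beside the lower neutrophil markers given above, whose part in its lower level was not tested. Csf1, the gene of M-CSF, fell by 0.71 ± 0.11. Of the immediate early genes, Egr2 rose by 1.47 ± 0.11, whereas Egr1 was 5.30, 5.02, 6.13, 6.22 and 5.60 in the ApoE arrays and 4.74 to 5.18 (median 4.92) in the AS2 arrays. Egr1 fell by 0.73 ± 0.19 (adjusted p = 0.0103), although the ranges overlapped. Fos rose by 0.35 ± 0.066, and the survival gene Ier3 fell by 1.12 ± 0.13. The full list had 9 higher and 6 lower of 24.

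Of 19 macrophage transcription factor genes 4 rose and 8 fell. Besides Mitf, Irf5 and Spi1 (PU.1) rose by 0.40 ± 0.055 and 0.37 ± 0.094. The inhibitors Id2 and Id3 fell by 1.04 ± 0.077 and 0.69 ± 0.12, the clock-related repressor gene Bhlhe41 by 1.31 ± 0.11, Maf by 0.52 ± 0.063 and Cebpb by 0.54 ± 0.089. Genes of alternative activation did not move together: Chil3, Tgm2 and Cd163 fell by 1.73 ± 0.15, 1.02 ± 0.10 and 1.29 ± 0.10, while Arg1 and Clec10a rose by 0.55 ± 0.074 and 0.72 ± 0.10, and 5 rose and 5 fell of 19.

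The 25 largest changes in each direction held genes outside these lists. Higher with AS2 plasma were Tgfbi, a matrix adhesion protein induced by TGF-beta, by 1.79 ± 0.087, the adrenomedullin and CGRP receptor gene Calcrl by 1.76 ± 0.065, the inositol carrier gene Slc5a3 by 1.74 ± 0.14 and the B cell and macrophage receptor gene Cd72 by 1.69 ± 0.074. Genes better known from neurons and endocrine cells were among them: Ptprn and Cpe, of dense-core vesicles, rose by 1.85 ± 0.074 and 1.85 ± 0.14, Olfm1 by 1.77 ± 0.085 and Nptx1 by 1.68 ± 0.14. Their AS2 levels were 6.18 ± 0.18, 6.72 ± 0.33, 8.71 ± 0.084 and 6.30 ± 0.30. The linker histone gene H1f5, made in S phase, rose by 1.75 ± 0.24. Lower were the transcription factor gene Stat4 by 1.97 ± 0.11, the cyclic AMP phosphodiesterase gene Pde7b by 1.98 ± 0.081, the sialic acid receptor gene Cd33 by 1.88 ± 0.15, the secreted peroxidase gene Gpx3 by 1.85 ± 0.19, the endotoxin-inactivating enzyme gene Aoah by 1.70 ± 0.078 and Cd4 by 1.66 ± 0.16. In all 50 of these genes the AS2 and ApoE arrays did not overlap, which the choice of the largest changes favours. Of the genes fixed for naming beside these, Postn and Reln were 3.71 ± 0.061 against 3.64 ± 0.05 and 3.90 ± 0.028 against 3.90 ± 0.062 (adjusted p = 0.245 and 0.936).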

How the data were processed

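RNA of 18 samples was hybridised to Affymetrix arrays as biotin-labelled cRNA after a kit for microRNA isolation, per the labels' protocols. Per the submitters' processing notes, the log2 values that the authors deposited come from RMA. Which version was run, and how probes were grouped into sets, was not given in the sources used here. RMA makes the distributions of arrays equal, so total RNA per cell is out of sight. The sorted values of 17 arrays were equal, and those of ApoE 1 differed from them by at most 0.0019. The table held 25428 rows, of which 723 had no symbol in the platform annotation and are unnamed here. Array number limits the precision.

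To these deposited log2 values limma 3.58.1 (R 4.3.3) fitted 4 group means to 24705 rows over 18 arrays (lmFit and eBayes, 14 residual degrees of freedom), with two-sided tests, Benjamini-Hochberg adjustment over all rows and a threshold of 0.05. The fit was tested on simulated data. Fold differences are 2 to the power of the log2 difference. The comparison, 38 gene lists and 11 marker lists were chosen with earlier results of these data known. Of 869 list genes 814 had a row, 808 by symbol and 6 through RefSeq; the others were not analysed here. Named are the 25 called genes with the largest rise and the 25 with the largest fall (without pseudogenes, predicted genes and genes of small RNAs), up to 6 members of each list with the smallest p, members needed to describe its roles, and fixed genes, of which part is printed. Small RNA and histone genes in the closing section were chosen after their values were seen. Replicate numbers were not used for pairing. Figures were drawn with matplotlib 3.10.9.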

Additional observations from a re-analysis of the deposited data

Results flagged for a closer look

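In the 476 sets made by each gene described and each of the ApoE and AS2 groups, the highest or lowest array was set against the spread of the others by Dixon's ratio, with critical values of 0.710 for 5 arrays and 0.625 for 6. This singled out 22 sets, and chance alone gives about 1 in 20 sets. The values that follow are log2 levels, each with the range of the other arrays of its group. Array AS2 3 was the highest of its group in 1 of these sets: Asns was at 8.60 (others 8.38 to 8.45). Array ApoE 2 was the lowest of its group in 4 of these sets: Cat was at 12.35 (others 12.48 to 12.53), Mmp13 at 4.03 (others 4.26 to 4.32), Nqo1 at 4.88 (others 5.20 to 5.31) and Oas3 at 4.81 (others 5.50 to 5.76). Array ApoE 2 was the highest of its group in 3 of these sets: Kars was at 7.87 (others 7.84 to 7.85), Pole at 6.24 (others 5.80 to 5.92) and Tnfaip3 at 7.18 (others 6.67 to 6.79). Array AS2 2 was the highest of its group in 1 of these sets: Cd86 was at 7.33 (others 6.83 to 6.99). Array ApoE 5 was the lowest of its group in 1 of these sets: Ero1a was at 10.33 (others 11.01 to 11.23). Array ApoE 5 was the highest of its group in 1 of these sets: Clec7a was at 9.37 (others 8.81 to 8.94). Array AS2 6 was the lowest of its group in 2 of these sets: Ero1a was at 9.56 (others 9.69 to 9.71) and Nfkbia at 9.37 (others 9.49 to 9.54). Array AS2 4 was the lowest of its group in 1 of these sets: Oasl2 was at 8.24 (others 8.39 to 8.47). Array AS2 4 was the highest of its group in 4 of these sets: Il10 was at 5.15 (others 4.87 to 4.97), Plin2 at 12.92 (others 12.75 to 12.81), Rrm2 at 8.92 (others 8.54 to 8.66) and Spi1 at 9.97 (others 9.76 to 9.83). Array AS2 1 was the lowest of its group in 2 of these sets: Lcn2 was at 9.92 (others 10.63 to 10.77) and Ltf at 8.38 (others 9.01 to 9.33). Array AS2 5 was the lowest of its group in 1 of these sets: Trem2 was at 11.02 (others 11.11 to 11.15). Array ApoE 3 was the highest of its group in 1 of these sets: Vegfa was at 10.39 (others 10.21 to 10.26). Array ApoE 2, which also correlated least with its group, was singled out in 7 sets, and the counts without it and ApoE 5 are given with the results. Whether these values are technical was not tested.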

How the results depend on the processing

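No setting reversed or moved by 1.5 times the 3 counts over all rows; counts within short lists moved more, as given with the results. Over all settings the rows higher with AS2 plasma numbered 1690 to 2015, those lower 1780 to 2182 and those changed at least 2-fold 287 to 312, against 1876, 1981 and 300. The settings were cyclic loess, a second quantile normalization, array weights, a robust variance with a trend, unnamed rows added, rows below the 40th percentile of means left out, genes with 1 row each, the AS2 and ApoE arrays alone, the replicate block, and arrays left out singly or ApoE 2 and 5 together. Cyclic loess gave 1974 higher and 1859 lower, and array weights 2015 and 2182. Of the rows called with all arrays, 81.1% to 100% kept their call in each setting. Of 319 called genes that the naming rule covers, 0 to 14 lost their call in a setting, 0 with a reversed sign. The replicate block gave 1695 higher and 1780 lower rows and 304 at least 2-fold. Deviations of same-numbered ApoE and AS2 arrays had r across rows of 0.12, 0.025, 0.12, 0.028 and -0.11 for numbers 1 to 5. Arrays of different numbers had r from -0.24 to 0.25, so these values cannot show whether the numbers pair the samples. The cause of the lower counts under the block was not tested. Medians of the lists of LXR targets, cholesterol synthesis, fatty acid synthesis, lipid droplets, integrins, proton pump subunits, glycolysis, alternative activation, serine enzymes and erythroid markers changed sign in some setting, so no direction is given for them. Arrays have no read depth; signal over background was not analysed here, and since 7 of 21 ribosomal protein genes lay below the median of the scale, 4.37, low levels carry little information.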

Other observations

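Small nucleolar RNAs, which guide the chemical modification of ribosomal RNA, were higher with AS2 plasma in 33 of 106 rows of that class (31.1%), against 7.59% of all rows. The class was singled out after its values were seen and has no test of its own. Its median difference was 0.23, and the median level over the class ran from 5.99 to 6.24 in the ApoE arrays and from 6.55 to 6.74 in the AS2 arrays, without overlap. With WT plasma the medians ran from 5.80 to 6.53, and with AS1 plasma from 5.52 to 5.63. Snord42a rose by 1.32 ± 0.22 from 9.03 ± 0.52 and Snord73b by 1.14 ± 0.17 from 9.05 ± 0.32, while the largest rise, in Snord12, was 1.93 ± 0.38. Many of these RNAs lie in introns of other genes, and signal of the host transcript and of the small RNA cannot be told apart on the array.

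Histone genes of the H1, H2A, H2B, H3 and H4 families, most of which are made in S phase, rose in 17 of 49 rows and fell in 1. Only rows with a numbered family symbol, such as H1f5, H2ac11 or H2bc12, were counted. H1f5 rose by 1.75 ± 0.24, H2ac11 by 0.95 ± 0.14 and H2bc12 by 0.77 ± 0.14. H2ax, a variant used in DNA repair and not among the 49 rows, rose by 1.09 ± 0.20. Members of these families are close in sequence, so the array may not separate them.

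Rows of microRNA genes measure what the labelled RNA holds of the gene and not a mature arm. Of 534 such rows 13 were higher (2.43%) and 11 lower (2.06%), both below the shares over all rows. Only 35 of the 534 had a mean of at least 7 with ApoE or AS2 plasma. The median level of the class was 3.82 to 3.84 in the ApoE arrays and 3.81 to 3.86 in the AS2 arrays, below the median of the scale. The low shares therefore say little about microRNA genes. Mir221 and Mir222, which lie beside each other, rose by 0.89 ± 0.087 and 0.46 ± 0.079. Mir99ahg, the host transcript of Mir99a and Mirlet7c-1, rose by 1.21 ± 0.14, and Mir99a by 0.72 ± 0.16. The mature 3′ arms of the first pair, from RefSeq (GRCm38.p6), are shown because they share the seed, bases 2 to 8, printed in capitals.
miR-221-3p: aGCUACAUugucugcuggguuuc
miR-222-3p: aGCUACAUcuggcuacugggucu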
